A study of Mus musculus with 12 samples.

Results

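Akr1e1, Erdr1, Kcnma1, Mid1 and Gdf3 read higher, and Uck2 and Wwc2 lower, in Rasgef1b knockout macrophages than in wild-type macrophages, both with R848 and with saline. The 7 genes were taken by their exact platform symbol, as 7 of 22180 genes with a row of 1 symbol on the array and 7 of the 14079 genes bright enough to be tested. They are the 7 tested genes (0.0497%) whose knockout difference passed an adjusted p of 0.05 in the same direction in each treatment. Each gene is represented by its row of highest mean, and in the other rows of Kcnma1 and Uck2 the genotypes overlapped. The members were chosen by these genotype differences, which are therefore given below as a description and carry no test.

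Bone marrow cells were grown into macrophages in medium conditioned by L929 fibroblasts, which supplies the growth factor CSF1. The knockout groups came from Rasgef1b fl/fl vav-icre mice, in which a Cre recombinase driven by the Vav promoter, active in blood-forming cells, acts on floxed Rasgef1b. Knockout and wild-type cells received R848, a synthetic agonist of the endosomal receptor TLR7, for 4 h, or saline, with 3 arrays in each of the 4 groups. The labels name no Cre-only group and give no age, no sex, no strain and no time for saline, so loss of Rasgef1b cannot be told apart from an effect of Cre or of genetic background. They do not say whether the 3 replicates were separate animals or cultures, so each spread is that between these arrays.

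Values are RMA log2 intensities, on which a difference of 1 is a 2-fold change. A row was called dim when it lay under the 40th percentile of named rows, at 4.31 to 4.35 by array. Rasgef1b itself read 8.63, 7.88 and 8.72 in knockout cells with saline, against 9.03, 9.19 and 9.14 in wild-type cells. With R848 it read 9.45, 8.60 and 9.36 in knockout cells, against 9.84, 9.84 and 9.69 in wild-type cells. The knockout arrays were lower without overlap in each treatment, by 0.71 with saline and 0.65 with R848, which missed the adjusted threshold of 0.05 in each alone (limma adjusted p = 0.158 and 0.333). Averaged over treatments Rasgef1b differed by -0.68 ± 0.15 (SE) and passed (adjusted p = 0.036). Signal remained in the knockout, and which part of the gene the row reads relative to the deletion is not given in the sources used here. Replicate arrays correlated with an r of 0.9909 or more over the tested genes. The 9 measured macrophage markers had mean levels of 10.35 to 10.54 in knockout arrays and 10.30 to 10.47 in wild-type arrays, and all 4 measured T cell markers were dim on every array. Means of the 7 neutrophil markers were 3.83 to 3.96 in knockout arrays and 3.77 to 3.92 in wild-type arrays. Of these, Ly6g, S100a8, Mpo and Camp were dim on every array, while S100a9 and Elane were above the limit on all 12. S100a9 was higher in the knockout without overlap in each treatment, by 0.12 in saline and 0.47 with R848 (limma adjusted p = 0.644 and 0.0866). It passed when averaged over treatments (0.30, adjusted p = 0.0375). Elane differed by 0.07 in saline, without overlap, and by -0.03 with R848, where the arrays overlapped. It did not pass averaged (0.02, limma adjusted p = 0.902). Of all tested genes 3.10% did not overlap in both treatments in the same direction, and 1.78% passed averaged. Means of the 7 dendritic cell markers were 5.31 to 5.48 in knockout arrays and 5.20 to 5.30 in wild-type arrays, without overlap, and Zbtb46 was dim on every array. Cd209a read 8.98 to 9.44 in knockout saline and 8.59 to 8.83 in wild-type saline, a difference of 0.52 (adjusted p = 0.0716), and differed by -0.03 with R848. Flt3 and Xcr1 were also higher without overlap in knockout saline, while Ccr7, Siglech and Batf3 overlapped (differences of -0.02, -0.12 and 0.16). The macrophage markers Adgre1, Csf1r and Fcgr1 were likewise higher without overlap in knockout saline, by 0.16, 0.13 and 0.11, while the other macrophage markers overlapped. Fcgr1 was also higher without overlap with R848, by 0.18, and did not pass averaged (0.145, limma adjusted p = 0.1545). Over all tested genes 16.1% did not overlap in saline. Of the 6 tested dendritic cell markers 0 passed in saline, with R848 or averaged, where 0.334%, 0.135% and 1.78% of all tested genes passed. The part of these markers in the differences of the members was not tested.

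Whether the members share a pathway was not tested, and what is known of each is given as background. Akr1e1 is an aldo-keto reductase, one of a family of NADPH-dependent enzymes that reduce aldehydes, ketones and sugar derivatives. Kcnma1 encodes the pore-forming subunit of the BK channel, a large-conductance potassium channel opened by calcium and by depolarization. Mid1 is a microtubule-bound ubiquitin ligase of the TRIM family that binds the phosphatase regulator Igbp1 and promotes turnover of the catalytic subunit of the phosphatase PP2A. Gdf3 is a secreted ligand of the TGF-beta family that acts through activin-type receptors, and it is known in macrophages as a target of the nuclear receptor PPAR gamma. Uck2 phosphorylates uridine and cytidine, the committing step of pyrimidine salvage. Wwc2 is a scaffold related to Wwc1 (KIBRA), an upstream regulator of the Hippo kinases. Erdr1 carries the name erythroid differentiation regulator and is annotated by RefSeq as a transcribed pseudogene.

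In the RefSeq annotation of GRCm38.p6, Akr1e1 lies at chr13:4591123-4609164, Kcnma1 at chr14:23292288-24005110, Gdf3 at chr6:122605403-122610087, Uck2 at chr1:167222895-167285933 and Wwc2 at chr8:47826082-47990544. Mid1 (chrX:169685199-169990798) and Erdr1 (chrX:170010526-170018797) are the only members on one chromosome, with 19.7 kb between the annotated end of Mid1 and the annotated start of Erdr1. They sit at the edge of the pseudoautosomal region, the stretch that the X and Y chromosomes share, whose boundary runs through Mid1 in laboratory mice. The Y-linked genes Uty, Kdm5d and Eif2s3y lay above the dim limit on every array, with ranges of 6.39 to 7.45, 5.51 to 6.17 and 7.30 to 7.58 in knockout arrays and of 6.74 to 7.51, 5.65 to 6.11 and 6.67 to 7.87 in wild-type arrays. Xist, the RNA of the inactive X chromosome, was dim on every array, at 2.87 to 3.22 in knockout and 2.94 to 3.21 in wild type. By these 4 genes the genotypes did not differ in which sex-linked transcripts were read.

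The RefSeq promoter windows, 300 bases each and ending shortly after a start site, covered 5 of the 7 members. The window of the gene with the largest genotype difference is shown with those of the 2 genes that read lower in the knockout, 5′ to 3′ on the gene's strand of GRCm38.p6. Capitals mark every CCAAT box and every GC box (GGGCGG) on either strand. The windows are chr13:4609115-4609414 for Akr1e1, chr1:167285078-167285377 for Uck2 and chr8:47990495-47990794 for Wwc2, all on the minus strand.
Akr1e1: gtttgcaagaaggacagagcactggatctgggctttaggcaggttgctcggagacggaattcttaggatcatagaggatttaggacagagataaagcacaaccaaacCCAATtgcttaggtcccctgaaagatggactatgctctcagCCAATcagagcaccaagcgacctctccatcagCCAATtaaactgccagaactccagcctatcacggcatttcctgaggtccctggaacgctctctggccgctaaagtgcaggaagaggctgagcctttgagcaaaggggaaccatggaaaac
Uck2: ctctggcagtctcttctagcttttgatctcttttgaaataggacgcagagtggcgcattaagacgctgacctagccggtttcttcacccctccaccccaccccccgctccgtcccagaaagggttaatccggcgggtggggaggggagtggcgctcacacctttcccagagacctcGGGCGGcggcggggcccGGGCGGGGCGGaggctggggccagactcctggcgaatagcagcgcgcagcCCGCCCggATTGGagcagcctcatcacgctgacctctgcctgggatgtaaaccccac
Wwc2: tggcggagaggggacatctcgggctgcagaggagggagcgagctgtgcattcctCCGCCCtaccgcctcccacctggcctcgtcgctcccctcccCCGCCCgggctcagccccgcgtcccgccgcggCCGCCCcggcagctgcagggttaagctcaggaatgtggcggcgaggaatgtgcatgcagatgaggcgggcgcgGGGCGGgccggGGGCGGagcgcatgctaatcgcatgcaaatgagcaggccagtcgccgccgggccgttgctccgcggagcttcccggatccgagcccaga
The Akr1e1 window held 3 CCAAT matches and 0 GC boxes, with 6 CpG dinucleotides and 50.7% G and C. The Uck2 window held 1 CCAAT match and 4 GC boxes, of which a pair share a base, and 22 CpG. Wwc2 had 5 GC boxes, 0 CCAAT matches and 34 CpG. Over all 32851 windows of this length, 37.4% held a CCAAT, 35.7% a GC box, and the median number of CpG was 7. The window of Kcnma1 (36 CpG, 3 GC boxes) was CpG-rich like those of the genes that were lower, so CpG number did not sort these members by direction. Only 2 of the 5 covered members were lower, and Erdr1 and Gdf3 had no window. Mid1 has 3 annotated windows with 2, 6 and 13 CpG, of which the third held 1 CCAAT match and none a GC box. CACGTG (E-box, in 7.15% of all windows) and TATAAA (13.6%) were searched on both strands and were in none of these 7 windows.

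Akr1e1 showed the largest genotype difference. With saline it read 7.02, 7.39 and 6.72 in knockout cells, against 3.82, 4.30 and 3.97 in wild-type cells. With R848 it read 6.45, 6.52 and 6.90 in knockout cells, against 4.32, 4.08 and 3.89 in wild-type cells. All 6 wild-type arrays were dim and all 6 knockout arrays were well above the limit, with a gap of 2.42 between the groups in saline and 2.13 with R848. The difference was 3.01 ± 0.17 (SE) in saline, 8.07-fold, and 2.53 ± 0.17 with R848, 5.76-fold. Because background is a large part of a dim signal, these folds may understate the change. Akr1e1 entered the tested genes only through its knockout arrays.

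Erdr1 was the brightest member after Kcnma1. In saline it read 11.32, 11.32 and 11.43 in knockout cells, against 9.63, 9.24 and 9.24 in wild-type cells. With R848 the values were 11.58, 11.34 and 11.35 in knockout cells, against 9.80, 9.32 and 9.54 in wild-type cells. Wild-type number 1 was the highest of its group in each treatment, and the groups stayed 1.69 apart in saline and 1.54 apart with R848. The difference was 1.99 ± 0.13 (SE), or 3.96-fold, in saline and 1.87 ± 0.13, or 3.66-fold, with R848. The other row of Erdr1, with a mean of 10.15, differed by 1.80 and 1.75.

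Mid1, its neighbour, read 9.28, 8.93 and 8.81 in knockout cells with saline, against 7.42, 7.72 and 7.33 in wild-type cells. With R848 it read 9.85, 9.09 and 8.76 in knockout cells, against 7.50, 7.14 and 7.53 in wild-type cells. Knockout number 1 was the highest of its group in each treatment, and no knockout array overlapped the wild type. The difference was 1.52 ± 0.22 (SE), or 2.86-fold, in saline and 1.84 ± 0.22, or 3.59-fold, with R848. The other row of Mid1, near the dim limit with a mean of 4.53, differed by 0.67 ± 0.24 and 1.11 ± 0.24. In that row knockout number 2 was the highest in each treatment.

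Kcnma1, by its main row, was the brightest member. It read 11.66, 12.64 and 12.46 in knockout cells with saline, against 10.19, 10.50 and 10.34 in wild-type cells. With R848 the values were 11.39, 12.49 and 12.36 in knockout cells, against 9.99, 10.23 and 10.09 in wild-type cells. Knockout number 1 was the lowest knockout array in each treatment, though still 1.16 above the highest wild-type array. The difference was 1.91 ± 0.26 (SE), or 3.76-fold, in saline and 1.98 ± 0.26, or 3.94-fold, with R848. The other row named Kcnma1 was dim on all 12 arrays, with a mean of 3.89, and differed by 0.05 ± 0.06 and -0.01 ± 0.06. The 2 rows of this channel gene, which spans 712823 bases, therefore do not show the same difference, and which exons each reads was not analysed here. Whether the bright row reads transcripts of Kcnma1 was not tested, so its values hold for that row only.

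Gdf3 was the dimmest of the genes that were higher and above the limit on every array. In saline it read 6.26, 6.61 and 6.37 in knockout cells, against 4.91, 5.36 and 5.23 in wild-type cells. With R848 it read 6.02, 6.19 and 6.17 in knockout cells, against 5.15, 5.22 and 5.20 in wild-type cells. The groups were 0.90 apart in saline and 0.80 apart with R848. The difference was 1.25 ± 0.11 (SE), or 2.37-fold, in saline and 0.94 ± 0.11, or 1.91-fold, with R848.

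Uck2 was lower in the knockout. With saline it read 6.21, 6.30 and 6.51 in knockout cells, against 7.19, 7.45 and 7.30 in wild-type cells. With R848 it read 7.09, 6.41 and 6.86 in knockout cells, against 7.72, 7.72 and 7.47 in wild-type cells. The groups did not overlap, and the nearest arrays with R848, knockout number 1 and wild-type number 3, were 0.38 apart. The difference was -0.97 ± 0.14 (SE), 1.96-fold lower, in saline and -0.85 ± 0.14, 1.80-fold lower, with R848. The other row of Uck2 was dim on all arrays, with a mean of 3.11, and differed by -0.12 and -0.08.

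Wwc2 had the smallest difference of the members. In saline it read 5.31, 5.08 and 5.10 in knockout cells, against 5.70, 5.94 and 6.02 in wild-type cells. With R848 it read 4.81, 4.98 and 4.96 in knockout cells, against 5.36, 5.69 and 5.68 in wild-type cells. The groups were 0.39 apart in saline and 0.38 apart with R848. The difference was -0.72 ± 0.11 (SE), 1.65-fold lower, in saline and -0.66 ± 0.11, 1.58-fold lower, with R848.

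**Figure D1:**
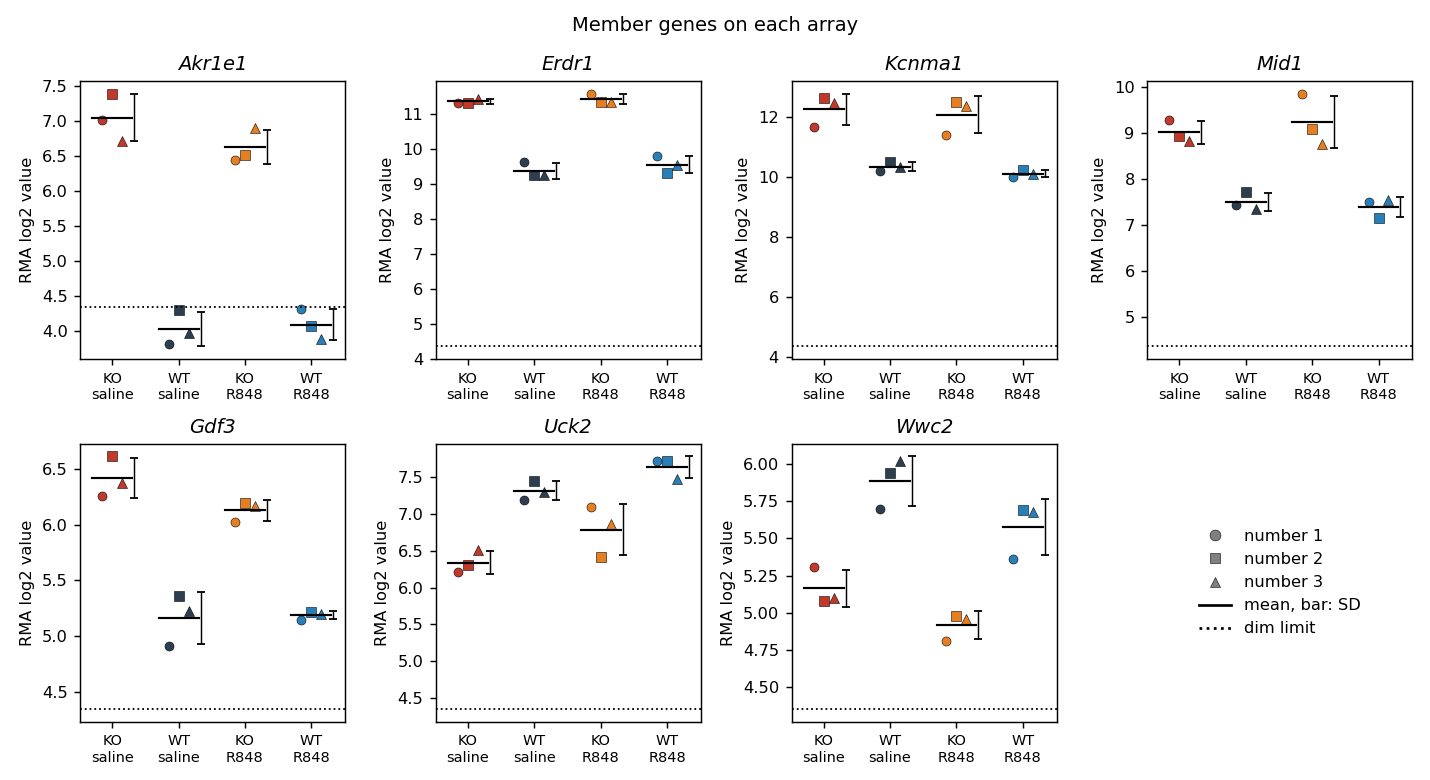
RMA log2 value (vertical axis, scaled per gene) of each member on every array, by group along the horizontal axis. Symbols give the replicate number, lines the group means, bars the SD (n = 3) and the dotted line the dim limit. The knockout arrays lie apart from the wild-type arrays in all 7 genes, and only the wild-type values of Akr1e1 fall under the limit.

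For all 7 members the knockout and wild-type arrays did not overlap in saline or with R848, where 16.1% and 13.8% of all tested genes did not overlap, and 3.10% did not in both treatments in the same direction. The rule used these contrasts, which at the adjusted threshold called 0.334% of tested genes in saline and 0.135% with R848. By size, Akr1e1, Erdr1, Kcnma1, Mid1 and Gdf3 ranked 1 to 5 in saline among the 14079 genes, and Uck2 and Wwc2 ranked 9 and 22. With R848 the ranks were 2 for Akr1e1, 3 for Kcnma1, 5 for Erdr1, 6 for Mid1, 19 for Gdf3, 25 for Uck2 and 45 for Wwc2. Just outside the set was Adss, an enzyme of AMP synthesis, with differences of -0.55 in saline and -0.46 with R848, next to -0.72 and -0.66 for Wwc2 inside it.

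The change of the genotype difference with treatment is given with no test, since both values chose the genes. The difference with R848 minus that in saline was -0.49 ± 0.24 (SE) for Akr1e1 and -0.31 ± 0.16 for Gdf3, toward a smaller difference. It was 0.33 ± 0.31 for Mid1, and between -0.12 and 0.12 for Erdr1, Kcnma1, Uck2 and Wwc2.

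**Figure D2:**
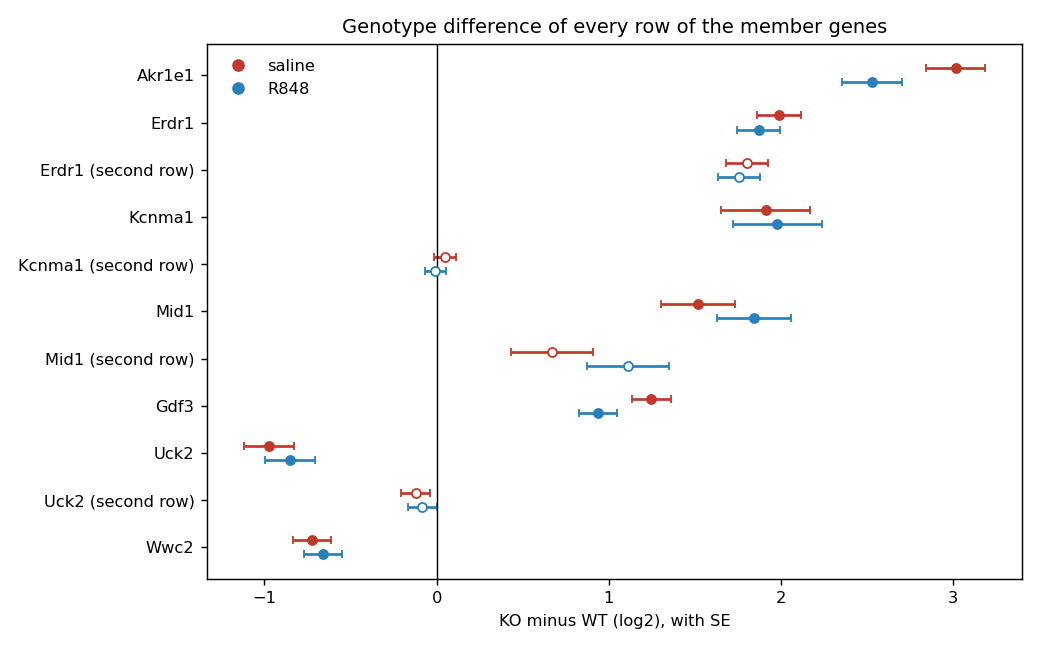
Knockout minus wild type on the log2 scale (horizontal axis, bars are SE) for each row of the member genes, in saline and with R848. Filled points are the main rows and open points the other row of the same gene. The rows of Erdr1 lie close together, while the other rows of Kcnma1 and Uck2 lie near 0.

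**Figure D3:**
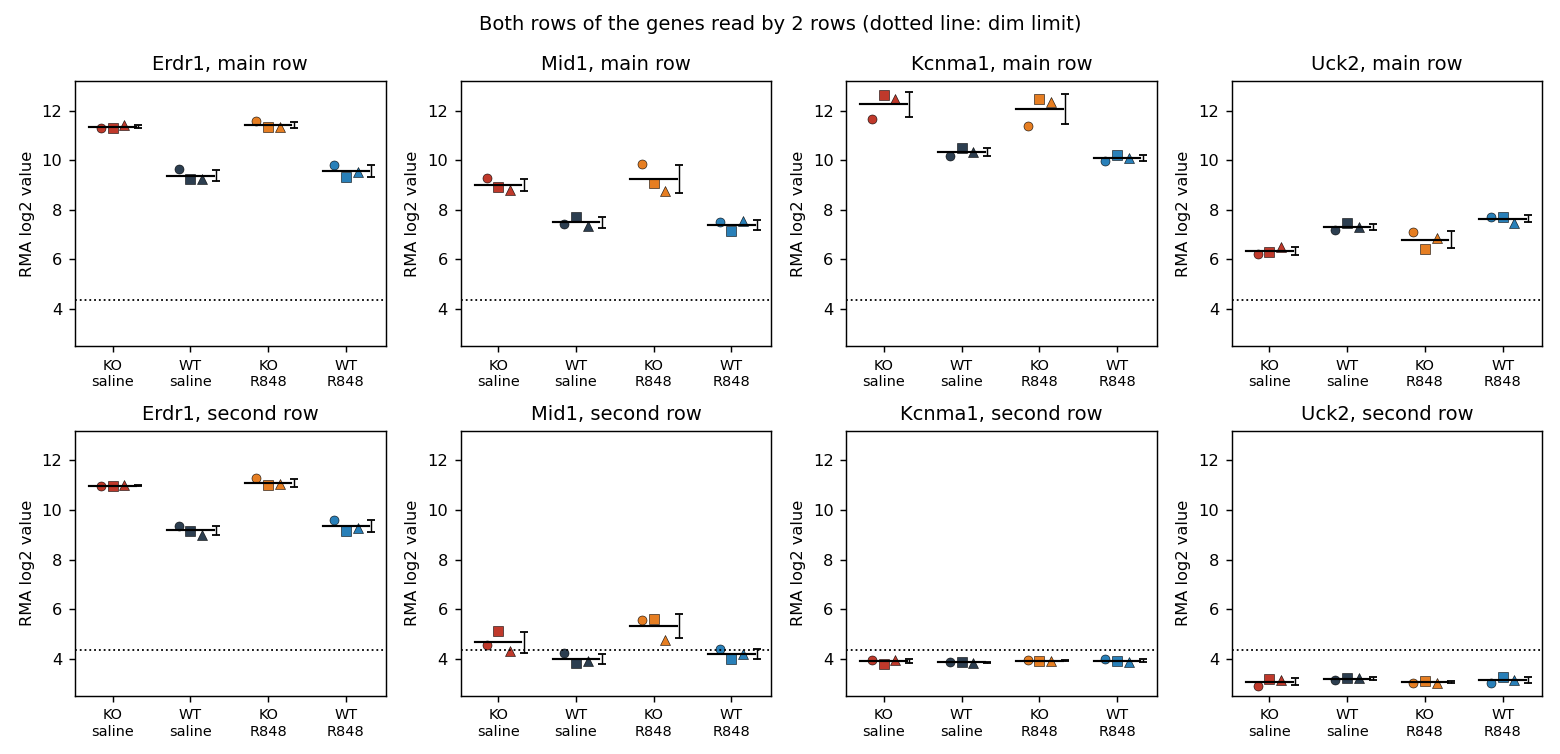
RMA log2 values by array for the 4 members read by 2 rows, the row of higher mean above and the other row below, on 1 common vertical scale. Symbols are replicate numbers, lines means, bars SD (n = 3) and the dotted line the dim limit. The other rows of Kcnma1 and Uck2 lie under the limit on all 12 arrays, and that of Mid1 straddles it.

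Whether R848 itself moves these genes is a question that the choice of members did not use, since R848 against saline averaged over genotypes weighs both genotypes equally. Its test does use the same spread estimate per gene as the contrasts that chose the members. Its p-values are therefore not wholly free of that choice. Uck2 was raised by R848, by 0.39 ± 0.10 (SE), or 1.31-fold (limma adjusted p = 0.00513). Wwc2 was lowered, by -0.28 ± 0.08, or 1.21-fold (adjusted p = 0.00707). The same test passed for 50.0% of all tested genes, so 2 of 7 members is no sign of particular sensitivity to R848. In Uck2 the shift with R848 ran against the knockout difference, and in Wwc2 it ran with it: the lowest values of Wwc2 were in knockout cells with R848.

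The other 5 members did not pass. Their R848 shifts, each with its 95% interval, were -0.18 (-0.44 to 0.08, limma adjusted p = 0.255) for Akr1e1 and 0.13 (-0.07 to 0.32, adjusted p = 0.272) for Erdr1. For Kcnma1 the shift was -0.21 (-0.60 to 0.19, adjusted p = 0.379), for Mid1 0.06 (-0.26 to 0.39, adjusted p = 0.767) and for Gdf3 -0.13 (-0.30 to 0.04, adjusted p = 0.192). Without wild-type saline replicate 1 the Gdf3 shift was -0.196 and passed (limma adjusted p = 0.0301). All 6 wild-type values of Akr1e1 are dim and can hide a shift, so its averaged shift and interval may understate its response. The intervals of the other 4 genes reach no further than 0.60 from 0 in either direction. The other row of Mid1 gave a shift of 0.42, which passed (adjusted p = 0.0375), so the call on Mid1 depends on the row. That row was above the dim limit on 2 knockout saline and 3 knockout R848 arrays. In the wild type it was above on 0 saline arrays and 1 R848 array. It thus met the filter only through its knockout arrays, and its dim wild-type values can hide a shift. By genotype it shifted by 0.64 in knockout and 0.20 in wild type. By genotype, with no test because these values share arrays with the choice, Akr1e1 shifted by -0.42 ± 0.17 (SE) in knockout and 0.07 ± 0.17 in wild type. Gdf3 shifted by -0.29 ± 0.11 in knockout and 0.02 ± 0.11 in wild type. Uck2 shifted by 0.45 ± 0.14 in knockout and 0.32 ± 0.14 in wild type, and Wwc2 by -0.25 ± 0.11 in knockout and -0.31 ± 0.11 in wild type.

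**Figure D4:**
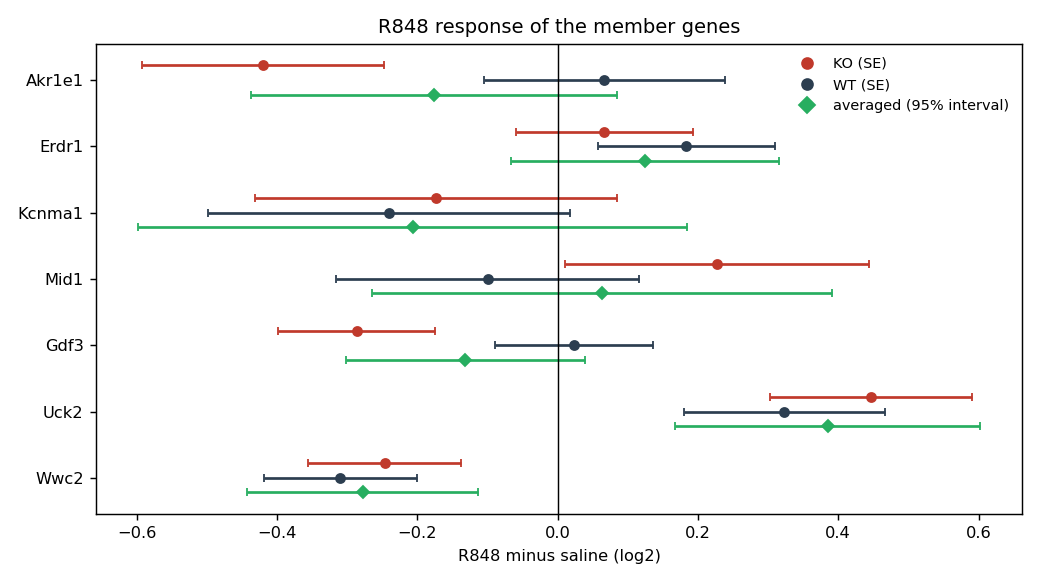
R848 minus saline on the log2 scale (horizontal axis) for the main row of each member, in knockout and wild-type cells (bars are SE) and averaged over genotypes (diamonds, bars are 95% intervals). The averaged interval of Uck2 lies above 0, that of Wwc2 below 0, and the other 5 include 0.

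The genes beside each member on its chromosome were compared between the genotypes as well. Up to 5 tested genes on either side of each member gave 56 genes that are not members, with starts 21 to 6694 kb from that of the member. None passed the threshold in saline or with R848 (limma, smallest adjusted p = 0.159 and 0.5), where 0.334% and 0.135% of all tested genes passed. Averaged over treatments, 0 of the 56 passed (smallest adjusted p = 0.12), against 1.78% of all tested genes. At such shares a count of 0 among 56 is near the background and is no result about these regions. At an unadjusted p under 0.05 there were 8 (14.3%) in saline and 3 (5.36%) with R848, against 12.6% and 8.74% of all tested genes. Their differences lay between -0.37 and 0.26 in saline and between -0.36 and 0.27 with R848.

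Next to Mid1, the heme lyase gene Hccs differed by -0.21 in saline and -0.09 with R848 (limma adjusted p = 0.337 and 0.833). On the far side of Erdr1, Asmt, which makes melatonin, differed by -0.01 and -0.05 (adjusted p = 0.971 and 0.935). The other tested genes around this pair, Tlr7, Prps2, Msl3 and Arhgap6, did not pass either. Beside Gdf3 are Apobec1, an RNA-editing deaminase (0.21 and 0.04), and the germ-cell gene Dppa3 (-0.08 and -0.08), which start 27.6 and 21 kb away. Beside Akr1e1, whose nearest tested neighbours start 342 and 1270 kb away, are Marcksl1-ps4 (0.09 and 0.03) and the transcription factor Klf6 (0.08 and 0.06). The neighbours of Kcnma1 are 4930405A10Rik (-0.03 and 0.08) and the scaffold gene Dlg5 (0.05 and 0.03). Those of Uck2 are Fam78b (-0.15 and 0.00) and Tmco1, a calcium leak channel (-0.08 and -0.10), and those of Wwc2 are Cdkn2aip (-0.03 and 0.02) and the deoxycytidylate deaminase Dctd (-0.11 and -0.14). None of these passed, with limma adjusted p of 0.236 or more in saline and 0.75 or more with R848.

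**Figure D5:**
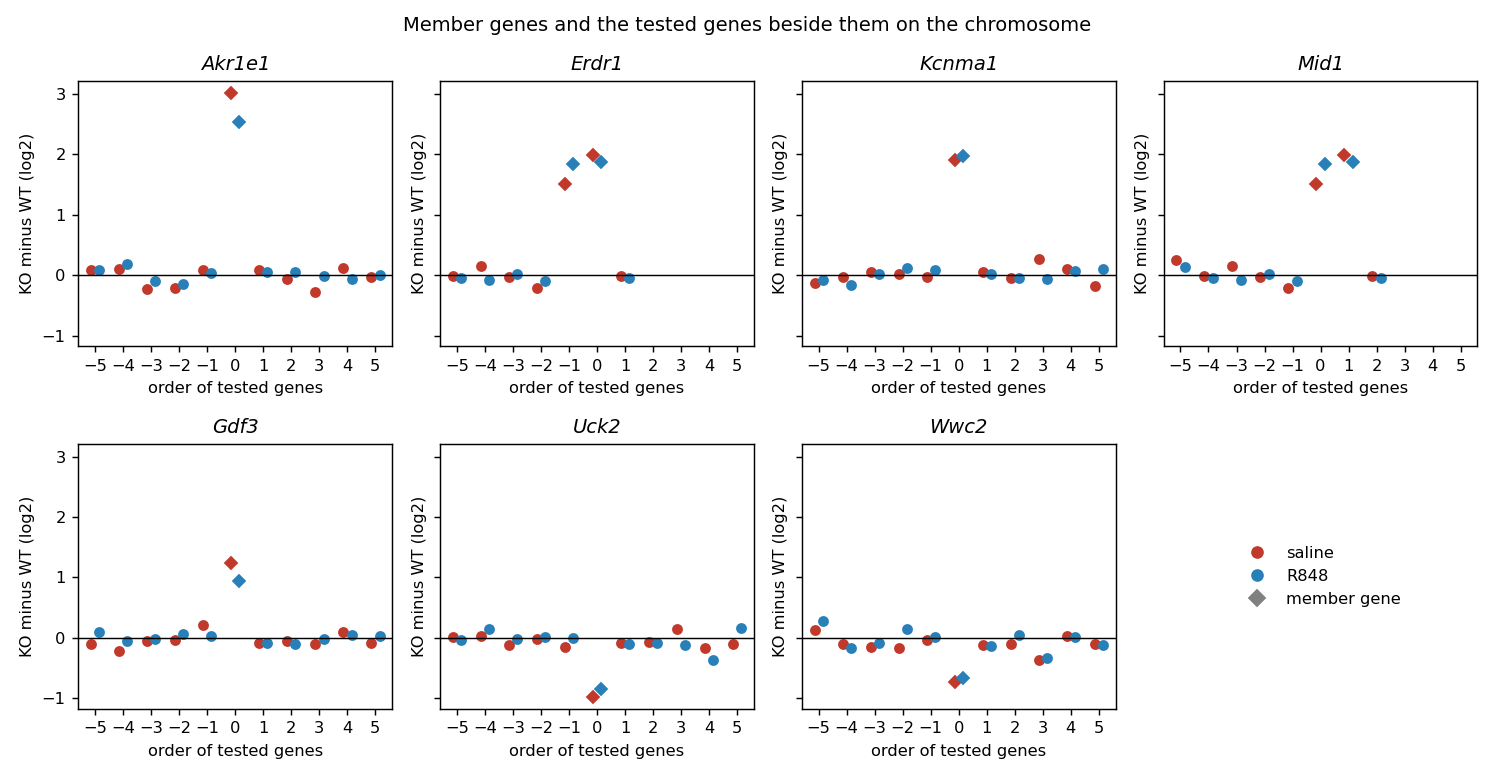
Knockout minus wild type on the log2 scale (vertical axis) for each member (position 0) and up to 5 tested genes on either side, in chromosomal order (horizontal axis), in saline and with R848. Diamonds are members, so Mid1 and Erdr1 appear in each other's panel. All other genes lie between -0.37 and 0.27.

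Relatives and partners of the members, and for Mid1 also chromosomal neighbours, were read from 6 lists, with 113 tested genes other than members. Hccs, Asmt, Arhgap6, Msl3 and Dctd are also among the flanking genes, so the sets are not separate. In saline and with R848, 0 and 0 of them passed (limma, smallest adjusted p = 0.0849 and 0.226), where 0.334% and 0.135% of all tested genes did, so the counts of 0 are near the background. At an unadjusted p under 0.05 there were 12 (10.6%) in each, against 12.6% and 8.74%. Averaged over treatments 3 of the 113 passed, where 1.78% of all tested genes did, so the count pooled over the lists is near the background too. The 3 were Cmpk2, Dtymk and Cad, all from the list of 33 tested pyrimidine genes, so the pooled share does not describe that list. The median difference of the 113 was -0.01 in saline and -0.02 with R848, as for all tested genes (-0.01 and -0.02).

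Of the 7 tested aldo-keto reductases beside Akr1e1, 0 passed, with differences of -0.03 to 0.11 in saline and -0.30 to 0.13 with R848. The channel beta subunits of this superfamily, Kcnab1 and Kcnab2, differed by 0.11 and -0.03 in saline and by 0.13 and -0.30 with R848. Of 8 calcium-activated potassium channel genes, 0 passed. Among them Kcnn4, the intermediate-conductance channel of blood cells, differed by -0.25 in saline and -0.08 with R848 (limma adjusted p = 0.356 and 0.895), and the BK accessory subunit Kcnmb3 by -0.01 and -0.22.

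Of 13 tested genes in the list of Mid1 relatives, complex partners and chromosomal neighbours, 0 passed. Igbp1, the adaptor between Mid1 and PP2A, differed by 0.14 in saline and 0.14 with R848 (limma adjusted p = 0.532 and 0.706). Of 29 tested genes of the TGF-beta list beside Gdf3, which holds ligands, receptors and Smads and also modulators such as Smurf1, Fst and Pparg, 0 passed, with the activin-type receptor Acvr1 at -0.25 and -0.16 (adjusted p = 0.139 and 0.533) and the procollagen protease Bmp1 at -0.02 and 0.33 (adjusted p = 0.943 and 0.235).

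Of 33 pyrimidine genes beside Uck2, 0 passed in saline or with R848. In each treatment 8 of them (24.2%) had an unadjusted p under 0.05, against 12.6% in saline and 8.74% with R848 over all tested genes. Cmpk2, a mitochondrial nucleotide kinase that interferon induces, came nearest, with means of 8.64 ± 0.09 in knockout and 8.04 ± 0.21 in wild type with saline (SD, n = 3 each). It differed by 0.61 in saline and 0.43 with R848 (limma adjusted p = 0.0849 and 0.313). Averaged over treatments, 11 of the 33 (33.3%) had an unadjusted p under 0.05, against 16.1% of all tested genes. Whether these shares differ was not tested. In that contrast Cmpk2 was higher in the knockout by 0.52 ± 0.10 (SE, limma adjusted p = 0.018) and passed without any 1 array. Dtymk, the thymidylate kinase, was lower (-0.25 ± 0.05, limma adjusted p = 0.0362), and so was Cad, which starts pyrimidine synthesis (-0.30 ± 0.07, adjusted p = 0.0472). These 2 were named after their values were seen, and each missed the threshold in most fits that left out 1 array. Dtymk passed only without wild-type saline replicate 1, knockout saline replicate 3 or knockout R848 replicate 3. Cad passed only without knockout R848 replicate 1. The count of listed genes past the threshold in these fits was 1 to 3. The ribonucleotide reductase subunit Rrm1 differed by -0.34 and -0.44 (adjusted p = 0.433 and 0.451). Of 23 Hippo genes beside Wwc2, 0 passed, with Rassf2 at 0.24 and -0.06 and the Hippo kinase Stk4 at 0.16 and 0.03.

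For each member, the 2 other genes with the most similar profile over the 12 arrays were taken by Pearson correlation. The candidates were tested genes that are not members and carry no gene-model or clone name. Likeness between members was thus not ranked, and "nearest" below means nearest among these candidates. This is a description over arrays that share groups. For Akr1e1 they were the nuclear body gene Sp100 (0.881) and the membrane gene Ms4a7 (0.867). For Gdf3 they were Sp100 (0.895) and the RNA helicase Ddx39b (0.885), and for Kcnma1 Ddx39b (0.897) and the interferon regulator Irf7 (0.884). Erdr1 was nearest to the interferon-induced Oasl2 (0.896) and to the SUMO ligase Pias1 (0.880), and Mid1 to the class I gene H2-M3 (0.892) and Pias1 (0.884). The knockout differences of these genes were small beside those of the members, between 0.06 and 0.43 in saline and between 0.09 and 0.38 with R848, and none passed in either treatment alone (limma adjusted p from 0.0633 in saline and from 0.121 with R848). Averaged over treatments 7 of the 11 genes most like a member passed, Sp100, Ms4a7, Oasl2, Ddx39b, Irf7, Piga and Adss. Since they were taken for profiles like those of genes chosen by genotype, these calls are no independent evidence. Uck2 was nearest to the prohibitin Phb2 (0.946) and the ribosome biogenesis factor Emg1 (0.931), with differences of -0.19 and -0.24 in saline. Wwc2 was nearest to Piga (0.918), which starts the GPI anchor, and to Adss (0.903). Adss passed in saline (-0.55, limma adjusted p = 0.0124) and missed with R848 (adjusted p = 0.051).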

How the data were processed

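Biotin-labelled cDNA from 12 macrophage samples was hybridized to Mouse Gene 2.1 ST arrays, per the labels' protocols. The deposited values are log2 values made with Affymetrix Expression Console and RMA, per the submitters' processing notes, without versions or settings. They range from 2.15 to 12.85. RMA gives all arrays nearly the same distribution, so a change in total RNA is not visible, and differences of dim rows are compressed. Scan dates were not used here.

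The platform table paired 23521 of 34472 rows with 1 symbol, 1814 with several and 9137 with none. Rows with several symbols, among them 2 that name Mid1 together with another gene, were not used. For a gene with several rows, the row of highest mean over all arrays was the main one. Genes above the 40th percentile on at least 3 arrays were tested (14079, with 8101 removed).

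Groups and numbers came from the sample titles. All 12 arrays entered 1 limma fit (limma 3.58.1, R 4.3.3) with a mean per group, eBayes, and Benjamini-Hochberg adjustment over all tested genes at 0.05. On simulated data with 200 of 14079 genes changed by R848, the averaged R848 test recovered 99% of changes of 0.5 and 100% of changes of 1. It also called 5 and 14 unchanged genes. In the deposited data 50.0% of tested genes passed this test, and all shifts of the members were smaller than 0.5. The simulation therefore does not give the recovery of shifts as small as theirs. Pairing of same-numbered arrays was checked on deviations from the group means. Their correlation exceeded 0.1 for all 3 numbers only between knockout saline and knockout R848 (0.27, 0.17 and 0.28), which the labels do not state, and not between genotypes or within the wild type.

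Named genes are the members, Rasgef1b, 2 most alike genes per member, the nearest flanking genes, and per list those past the threshold in a genotype contrast or otherwise the 2 with the largest averaged difference. The members and lists were chosen with earlier results of these data known. The genotype contrast averaged over treatments was added for listed, flanking and marker genes after results were seen. Alternatives covered the spread model, filter, scaling, arrays, weights, blocks and rows.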

Additional observations from a re-analysis of the deposited data

How the results depend on the processing

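Under every alternative run that kept the row of each gene, the genotype differences of the members kept their direction and moved by less than the replicate SD. With the other row of the same symbol, Erdr1 differed by 1.80 in saline, Mid1 by 0.67 in saline and 1.11 with R848, Uck2 by -0.12 and -0.083, and Kcnma1 by 0.05 in saline and -0.0067 with R848, where its sign turned. That row also gave R848 shifts of 0.42 for Mid1, now past the threshold, and -0.038 for Uck2, with the sign turned. The other rows of Kcnma1 and Uck2 are dim on all arrays, and that of Mid1 is dim on most wild-type arrays. Which probes the rows hold was not tested.

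Leaving out each array in turn, the R848 shift of Gdf3 ranged from -0.196 to -0.0825, and it passed without wild-type saline replicate 1 (limma adjusted p = 0.0301). Those of Uck2 (0.31 to 0.48) and Wwc2 (-0.33 to -0.22) stayed past the threshold. The R848 shift of Mid1, not called, ranged from -0.09 to 0.18. With the replicate number as a block, the limma adjusted p was 0.00774 for Uck2 and 0.00561 for Wwc2, and the block changed no call of an R848 shift. Counts of listed and flanking genes past the threshold within a treatment were 0 under every alternative run. For the genotype contrast averaged over treatments, added after seeing the data, 3 listed genes passed, against 5 with the stricter filter, 6 with array weights, 5 with the replicate block and 1, Cmpk2, with correlated pairs as the replicate block. Without 1 array the count was 1 to 3, and it was 1 without any one of wild-type saline 2 and 3, wild-type R848 1, 2 and 3, knockout saline 2 and knockout R848 2. Of the flanking genes 0 passed, except Neil3 without wild-type saline replicate 1 (a count of 0 to 1). With cyclic loess, 26 genes in place of 19 passed for the genotype difference with R848, with 57.7% in place of 42.1% of them higher. The 3 arrays per group limit the precision, and dim rows such as wild-type Akr1e1 have compressed differences.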
